A study of Mus musculus with 6 samples.

Results

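The subject here is a set of 9 potassium channel genes that set the resting potential and late repolarization of atrial cardiomyocytes: the inward rectifiers Kcnj2, Kcnj12, Kcnj3 and Kcnj5, the two-pore channels Kcnk2 and Kcnk3, and the small-conductance calcium-activated (SK) channels Kcnn1, Kcnn2 and Kcnn3. They were taken by gene symbol from the table of normalized counts, and all 9 were found among 26332 genes with values. Nuclear RNA was sequenced from atrial nuclei of 3 mice with the Prrx1(R1A)-/- genotype and of 3 mice labelled control, all aged 8 to 12 weeks. Each library came from 1 animal, whose left and right atrial nuclei were put together, stained for PCM1, a protein that gathers around cardiomyocyte nuclei, and sorted. The control genotype is given in the labels only by that word, and the matching columns of the count table carry the letters wt. R1A is the allele's name, and the series title ties it to a noncoding region that regulates Prrx1, a homeobox transcription factor gene; the labels do not say how the allele was made. Because left and right atria were combined, a difference between the chambers cannot be seen.

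Inward rectifiers pass potassium more easily into the cell than out of it. Channels of the Kir2 type (Kcnj2, Kcnj12) carry the steady current that holds the resting potential, and channels of the Kir3 type (Kcnj3, Kcnj5) join into one acetylcholine-gated channel that opens when G protein βγ subunits are freed by the muscarinic receptor. Two-pore channels pass a background current that is set by stretch, lipids and acidity, and SK channels open when calmodulin bound to them takes up calcium. In atrial muscle all of these currents shorten or stabilize the action potential, which is why their genes are studied in atrial arrhythmia.

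Every member shares the potassium selectivity filter, the short loop that lets potassium through and holds sodium back. The coding stretches around it are shown because they set out how the genes differ at the level that a sequencing read sees. In the GENCODE M21 transcripts of GRCm38 an in-frame search for codons of threonine or serine, any residue, glycine, tyrosine or phenylalanine, and glycine found 1 match in each inward rectifier and SK gene and 2 in each two-pore gene, whose name comes from its 2 pore loops. The capitals mark the codons for glycine, an aromatic residue and glycine, with 18 bases on either side.
Kcnj2: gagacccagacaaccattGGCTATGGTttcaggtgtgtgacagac
Kcnj3: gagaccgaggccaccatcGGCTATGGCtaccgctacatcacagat
Kcnj5: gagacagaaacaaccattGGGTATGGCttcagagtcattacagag
Kcnk2, pore 1: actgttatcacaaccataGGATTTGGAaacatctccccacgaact
Kcnk2, pore 2: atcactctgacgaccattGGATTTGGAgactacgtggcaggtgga
Kcnk3, pore 1: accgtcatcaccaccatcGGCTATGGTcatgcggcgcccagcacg
Kcnk3, pore 2: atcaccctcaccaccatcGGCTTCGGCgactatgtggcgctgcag
Kcnn1: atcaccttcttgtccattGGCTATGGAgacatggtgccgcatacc
Kcnn3: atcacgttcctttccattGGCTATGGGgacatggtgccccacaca

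Of the 45 bases printed, Kcnn1 and Kcnn3 had 38 in common, and Kcnj3 and Kcnj5 had 32. The second pores of Kcnk2 and Kcnk3 had 30 bases in common, against 25 between the pores of Kcnk3 itself. Over whole coding sequences, the longest run of identical bases that any pair within a family had was 26, between Kcnn1 and Kcnn3 (ctgtccatccccatgttcctgcgcct). For Kcnj2 and Kcnj5 it was 18 (cctggctgttctttggct) and for Kcnk2 and Kcnk3 it was 10 (gctggagcgc). The sources used here give neither the read length nor the counting rule.

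The 6 libraries held 10580961 to 14658584 reads, of which ribosomal RNA took 26.7%, 28.9% and 39.8% in Prrx1(R1A)-/- replicates 1, 2 and 3 and 46.5%, 12.0% and 17.9% in the control replicates. Prrx1 averaged 193 ± 9.07 normalized counts in Prrx1(R1A)-/- nuclei and 344 ± 67.0 in control nuclei (SD, n = 3 each), and the groups did not overlap (log2 fold change −0.82 ± 0.25 SE, adjusted p = 0.27 by limma). Groups did not overlap for 17.2% of all genes tested. The authors' deposited table gives Prrx1 a log2 fold change of −1.17, a p of 0.0152 and an adjusted p of 0.0034, but that entry does not match itself. Its adjusted p lies below its p, and its fold change over its SE is 4.33 in size beside a Wald statistic of 2.43; of the 1900 entries in the authors' deposited table, Prrx1 is the 1 with either mismatch (tolerance 0.01 for the second). The entry nearest in p has an adjusted p of 0.238, and the Prrx1 count of control replicate 3 is the 1 value of the count table that is not whole reads. The cause was not tested; Prrx1 enters the results on the channel genes only as 1 of the 14584 genes fitted. Control replicate 1 stood apart from the rest, with a correlation across genes of 0.890 to 0.908 with the other libraries, against 0.912 to 0.958 between all other pairs. The 20 cardiomyocyte markers were all detected, with Ttn (944872 ± 333021 and 335410 ± 113698 normalized counts) and Myh6 (162697 ± 26707 and 53900 ± 6014) the most abundant in Prrx1(R1A)-/- and control nuclei. Their mean log2 level was 12.34 to 12.77 in Prrx1(R1A)-/- libraries and 10.81 to 12.14 in control libraries, lowest in control replicate 1, so each library's channel values stand beside a cardiomyocyte signal that itself differed by 1.03 on the log2 scale between group means. In bulk nuclei, fewer cells of a type and less RNA per cell cannot be told apart.

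None of the 9 genes passed the test between genotypes. A normalized count is the number of reads after division by 1 scaling factor per library, and a log2 fold change here is that of the count plus 1, Prrx1(R1A)-/- over control, from a limma fit over 14584 genes. All 9 members reached 10 normalized counts in at least 3 of the 6 libraries, counted over both groups together, and were tested. Limma called 0 of 9 at an adjusted p under 0.05 (0.0137% of all genes tested were called), with adjusted p from 0.302 to 0.930. At an unadjusted p under 0.05 it had 2 of 9, Kcnk3 and Kcnj3 (11.9% of all genes: 6.67% higher and 5.25% lower), and edgeR (12.0%) and DESeq2 (12.9%) each had 2 as well. edgeR called 0 members after adjustment (0% of all genes), and DESeq2 called 0 of the 7 members it gave an adjusted p (2.13% of the 11467 genes with one), leaving out Kcnk2 and Kcnn2. The values of 7 members lay above 0 and of 2 below, with a median of 0.39 beside −0.0036 for all genes tested, of which 49.7% lay above 0.

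**Figure D1:**
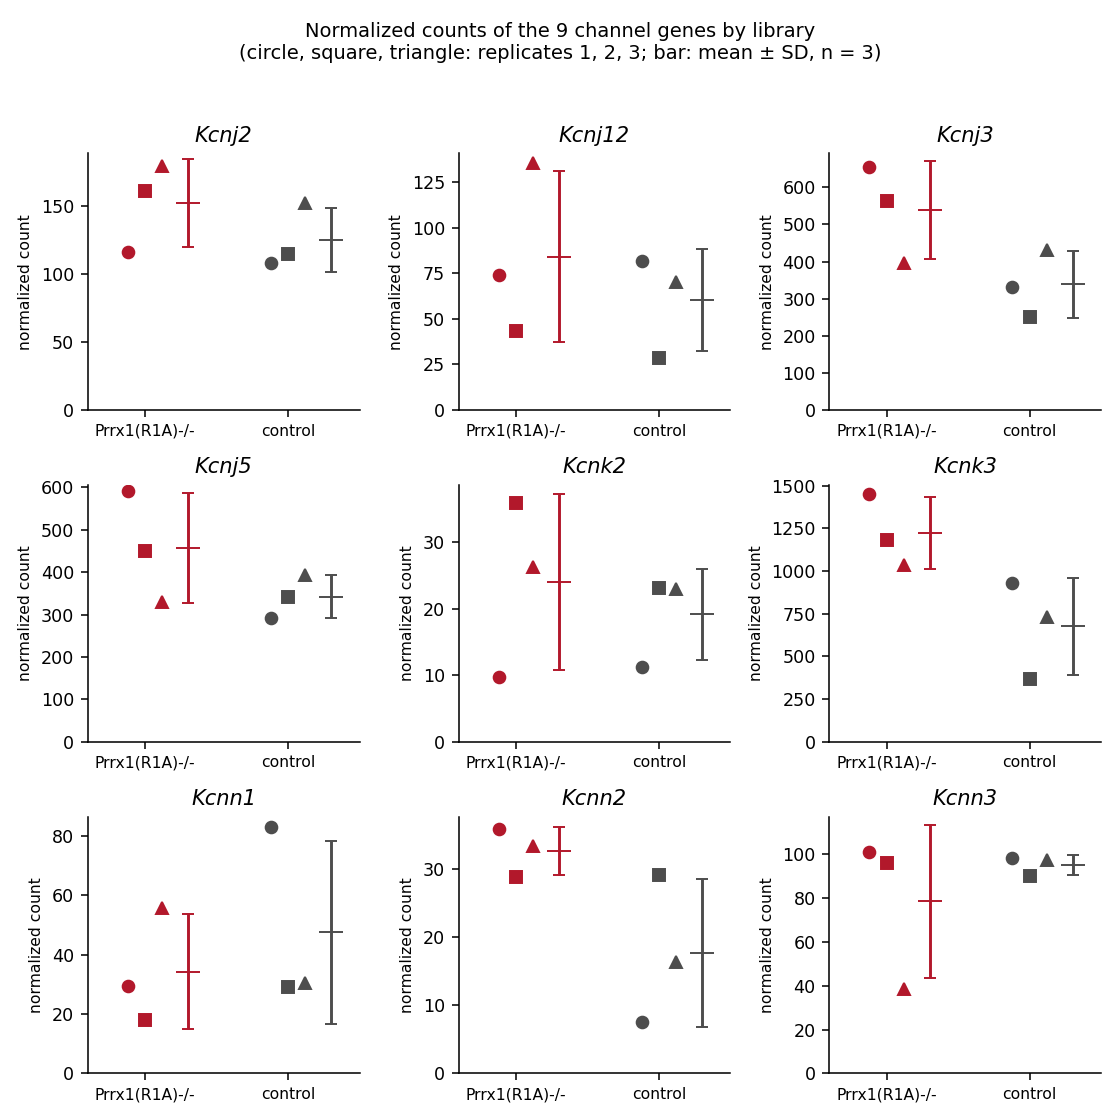
Normalized counts (vertical axes, from 0) of each of the 9 genes in the 3 Prrx1(R1A)-/- libraries (left, red) and the 3 control libraries (right, grey), with the mean ± SD beside the points. Kcnk3 is the gene whose groups do not overlap, with 1034 to 1449 normalized counts in Prrx1(R1A)-/- and 368 to 927 in control libraries. Among all genes tested, 17.2% had groups that did not overlap.

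Set against exon length, the 9 genes fell into tiers. The counting rule is not known, so it is not known whether reads in introns were counted, and the tiers depend on the lengths used. By mean normalized count over the 6 libraries, Kcnn3 (86.8) lay above Kcnj12 (72.2), and its 10451 exonic bases put it in a lower tier. Kcnk3 stood on top, with 307 ± 53.0 normalized counts per kb of exon in Prrx1(R1A)-/- nuclei and 170 ± 71.4 in control nuclei (SD, n = 3 each). Kcnj3 (103 ± 25.2 in Prrx1(R1A)-/-, 64.9 ± 17.5 in control) and Kcnj5 (97.6 ± 27.8 and 73.1 ± 10.9 per kb, in the same groups) came next, and their ranges overlapped with each other in both genotypes. Kcnj12 (30.6 ± 17.1 in Prrx1(R1A)-/-, 21.9 ± 10.2 in control) and Kcnj2 (27.9 ± 5.93 and 22.9 ± 4.35 per kb) formed the third tier, again overlapping. The SK genes and Kcnk2 were lowest, between 2.37 and 10.4 normalized counts per kb as group means. In Prrx1(R1A)-/- nuclei each tier stood clear of the next, while in control nuclei the range of Kcnj12 overlapped with that of Kcnn1. The order of tiers was the same in both genotypes, and the places swapped were those of neighbours within a tier.

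**Figure D2:**
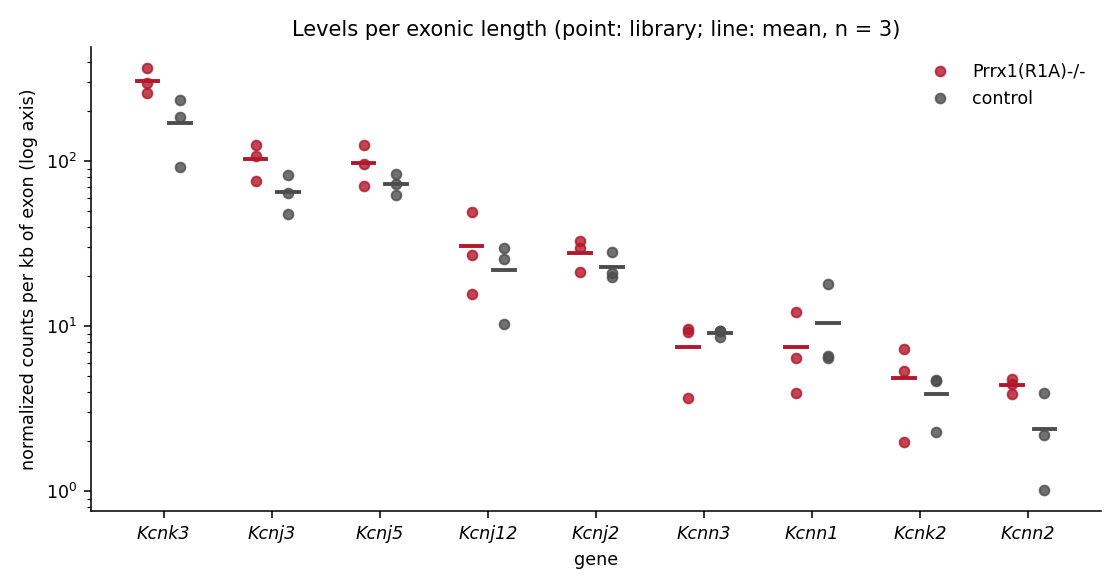
Normalized counts per kb of exon on a log axis for the 9 genes, ordered by their mean in Prrx1(R1A)-/- libraries (left point column of each pair, red) with control libraries on the right (grey). Kcnk3 leads at 307 per kb in Prrx1(R1A)-/- and 170 per kb in control libraries, and Kcnn2 is last at 4.37 and 2.37.

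As a share of the summed per-kb level of the 9 genes, the two-pore pair, nearly all of it Kcnk3, made up 53.3%, 53.3% and 51.6% in the Prrx1(R1A)-/- libraries and 53.6%, 36.2% and 44.1% in the control libraries. The Kir3 pair took 36.6%, 35.8% and 28.5% in Prrx1(R1A)-/- and 28.7%, 45.0% and 39.1% in control libraries. The Kir2 pair took 7.01% to 16.0% in Prrx1(R1A)-/- and 11.3% to 12.5% in control libraries. The 3 SK genes together took 2.97% to 3.94% in Prrx1(R1A)-/- and 4.24% to 7.04% in control libraries. Of these 4 shares, that of the SK genes was the one whose groups did not overlap; shares sum to a whole, so it moves with the level of Kcnk3 and the Kir3 pair, and it was not tested.

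Kcnj2 encodes Kir2.1, the main subunit of the resting inward rectifier current in rodent heart. The gene (identifier 16518) lies on the plus strand of chromosome 11 at 111066164 to 111076821 in GRCm38, has 5444 bases of exon and shares none with another annotated gene. It had 116, 161 and 179 normalized counts in Prrx1(R1A)-/- replicates 1, 2 and 3 and 108, 115 and 152 in the control replicates. The highest value was in Prrx1(R1A)-/- replicate 3 and the lowest in control replicate 1, and the groups overlapped. The log2 fold change was 0.27 ± 0.31 (SE), with a 95% interval from −0.40 to 0.95 and an adjusted p of 0.754 by limma, so the data allow anything from 0.758-fold to 1.93-fold.

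Kcnj12 encodes Kir2.2, which assembles with Kir2.1. It lies on the same chromosome (identifier 16515; chromosome 11, 61022564 to 61071131, plus strand, 2750 exonic bases with no overlap). It had 73.8, 43.2 and 135 normalized counts in Prrx1(R1A)-/- libraries and 81.8, 28.5 and 70.4 in control libraries. Libraries of 1 genotype differed among themselves more than the genotypes did, with a coefficient of variation of 55.8% in Prrx1(R1A)-/- and 46.6% in control libraries, against 21.2% and 18.9% for Kcnj2. Limma put the difference between genotypes at 0.46 ± 0.52 on the log2 scale (adjusted p = 0.756). The highest Kcnj12 counts of each genotype were in Prrx1(R1A)-/- replicate 3 and control replicate 1, the libraries of each group with the largest share of ribosomal RNA. The lowest Prrx1(R1A)-/- count was in replicate 2, while replicate 1 had that group's smallest ribosomal RNA share. In the control group replicate 2 was lowest in both. With the ribosomal RNA level as a covariate the log2 fold change was −0.02. A part of ribosomal RNA in these counts was not tested.

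Kcnj3 encodes GIRK1, the subunit of the acetylcholine-gated channel that needs a partner to reach the surface. The gene (identifier 16519; chromosome 2, 55435970 to 55598145, plus strand) has 5215 exonic bases, of which 1621 are also exon of Gm26794, a noncoding gene on the opposite strand; no source says that counting used strand, so reads from that stretch cannot be told apart. It had 656, 564 and 396 normalized counts in Prrx1(R1A)-/- libraries and 332, 250.2 and 432 in control libraries. The 2 highest values were in Prrx1(R1A)-/- replicates 1 and 2, and control replicate 3 lay above Prrx1(R1A)-/- replicate 3, so the groups overlapped. The means were 539 ± 132 in Prrx1(R1A)-/- and 338 ± 91.2 in control nuclei (SD, n = 3 each), a log2 fold change of 0.67 ± 0.28 with a 95% interval from 0.06 to 1.29 (unadjusted p = 0.034, adjusted p = 0.379 by limma). The authors' deposited table lists it with a log2 fold change of 0.58, a p of 0.0319 and an adjusted p of 0.32.

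Kcnj5 encodes GIRK4, which carries that channel to the membrane and can also form one by itself. It lies on the minus strand of chromosome 9 (identifier 16521, 32314707 to 32344350, 4685 exonic bases with no overlap). It had 591, 451 and 330.5 normalized counts in Prrx1(R1A)-/- libraries and 292, 342 and 394 in control libraries. Within the Prrx1(R1A)-/- group both GIRK genes had the same order, highest in replicate 1 and lowest in replicate 3, while in control nuclei both were highest in replicate 3. The log2 fold change of Kcnj5 was 0.39 ± 0.27, with a 95% interval from −0.20 to 0.97 (adjusted p = 0.585 by limma).

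Kcnk3 encodes TASK-1, an acid-sensitive background channel that in human heart is known from the atria. The gene (identifier 16527; chromosome 5, 30588170 to 30625271, plus strand) has 3976 exonic bases. It had 1449, 1179 and 1034 normalized counts in Prrx1(R1A)-/- replicates 1, 2 and 3 and 927, 368 and 731 in the control replicates. Each Prrx1(R1A)-/- library lay above each control library, and Kcnk3 was the 1 member of 9 whose groups did not overlap (17.2% of all genes tested had groups that did not overlap). The means were 1221 ± 211 and 675 ± 284 normalized counts in Prrx1(R1A)-/- and control nuclei, with a log2 fold change of 0.94 ± 0.32 and a 95% interval from 0.25 to 1.63. Its unadjusted p was 0.0119 and its adjusted p 0.302 by limma, 574th of 14584 genes by p, so it did not pass. In the authors' deposited table it has a log2 fold change of 0.73, a p of 0.00949 and an adjusted p of 0.191.

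The call of Kcnk3 turned on control replicate 1. Without that library its log2 fold change was 1.22 and its adjusted p 0.014, the 1 member of 9 called (9.16% of all genes tested were called in that fit, 6.1% higher and 3.06% lower). With libraries weighted by their quality it was 1.02 with an adjusted p of 0.021, again 1 of 9 (10.4% of all genes). Over the 18 alternatives its adjusted p ranged from 0.014 to 0.885. With the ribosomal RNA level as a covariate it was 0.61 (adjusted p = 0.227). Control replicate 2 held the lowest Kcnk3 count, 368 normalized counts, and without it the log2 fold change was 0.55 (adjusted p = 0.66). The gene Gm9899, a noncoding transcript on the other strand, shares 229 exonic bases with Kcnk3. Gm9899 had 279, 419 and 164 normalized counts in Prrx1(R1A)-/- and 115, 112 and 166 in control libraries. Its log2 fold change was 1.05 (unadjusted p = 0.0130, adjusted p = 0.310 by limma), and its groups overlapped. No source says that counting used strand, so reads from the shared stretch cannot be told apart.

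Kcnk2 encodes TREK-1, a stretch- and lipid-gated background channel. It spans chromosome 1 from 189207930 to 189402273 on the minus strand (identifier 16526, 4943 exonic bases, 604 of them shared with A430027H14Rik on the other strand). It had 9.77, 36.0 and 26.3 normalized counts in Prrx1(R1A)-/- and 11.3, 23.2 and 23.0 in control libraries, from 9 to 31 reads each. Replicate 1 was the lowest library in both genotypes, and the control range lay inside the Prrx1(R1A)-/- range. The 9 reads in Prrx1(R1A)-/- replicate 1 have an exact 95% Poisson interval of 4.47 to 18.5 normalized counts, which covers counting error only. Limma gave a log2 fold change of 0.20 ± 0.65, with an interval from −1.21 to 1.61 (adjusted p = 0.93), so the interval takes in differences of up to 3.06-fold.

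Kcnn2 encodes SK2, the SK subunit best known in mouse atrium. The gene (identifier 140492; chromosome 18, 45268860 to 45686024, plus strand) has 7468 exonic bases, of which 323 are also exon of AC121957.1 and 284 of A330093E20Rik, both on the opposite strand. It had 35.8, 28.8 and 33.4 normalized counts in Prrx1(R1A)-/- libraries and 7.55, 29.2 and 16.3 in control libraries. The Prrx1(R1A)-/- libraries lay close together, with a coefficient of variation of 10.9% against 61.6% in control libraries. They had 33, 24 and 33 reads, and counting error alone is wider than their spread. The exact 95% Poisson interval of Prrx1(R1A)-/- replicate 1 was 24.7 to 50.3 normalized counts. Control replicate 2 fell inside the Prrx1(R1A)-/- range, and control replicate 1 had 6 reads, with an exact 95% Poisson interval of 2.77 to 16.4 normalized counts. The log2 fold change was 1.03 ± 0.59, the largest in size of the 9, with an interval from −0.27 to 2.32 and an adjusted p of 0.516 by limma. Without control replicate 1 it was 0.55, and with the ribosomal RNA level as a covariate 1.58 (adjusted p = 0.189 by limma).

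Kcnn3 encodes SK3, whose human gene lies at a locus tied to atrial fibrillation. It lies on chromosome 3 at 89520164 to 89675132 (identifier 140493, plus strand, 10451 exonic bases with no overlap). It had 101, 95.99 and 38.4 normalized counts in Prrx1(R1A)-/- libraries and 98.1, 89.9 and 97.1 in control libraries. Of the 6 libraries, 5 lay between 89.9 and 101, and Prrx1(R1A)-/- replicate 3 alone was lower. By limma its log2 fold change was −0.39 ± 0.41 with an adjusted p of 0.734, and without Prrx1(R1A)-/- replicate 3 it was 0.05.

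Kcnn1 encodes SK1, a subunit best known from neurons. It lies on the minus strand of chromosome 8 (identifier 84036, 70842049 to 70863258, 4587 exonic bases, 132 of them shared with A230052G05Rik on the other strand). It had 29.3, 17.998 and 55.6 normalized counts in Prrx1(R1A)-/- libraries and 83.0, 29.2 and 30.4 in control libraries. The highest value was in control replicate 1, at 66 reads, and the groups overlapped. Limma gave it −0.43 ± 0.58 on the log2 scale (adjusted p = 0.801), and without control replicate 1 it was 0.05. Both members below 0 therefore turned above 0 when 1 library was left out, a different one for each. With all libraries and the ribosomal RNA level as a covariate, Kcnn1 was at −1.02 and Kcnn3 at −0.31.

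**Figure D3:**
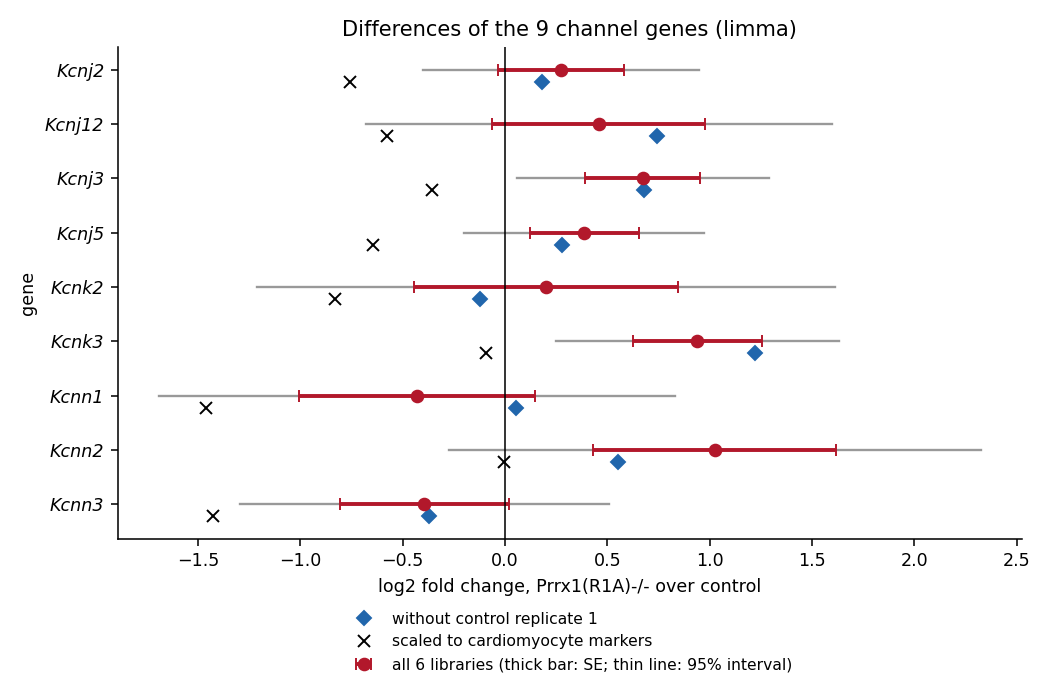
Log2 fold change of each of the 9 genes, Prrx1(R1A)-/- over control (horizontal axis), with its SE and 95% interval from limma on all 6 libraries (red), without control replicate 1 (blue diamonds) and after scaling each library to the cardiomyocyte markers (crosses). The interval of 2 genes, Kcnk3 (0.25 to 1.63) and Kcnj3 (0.06 to 1.29), lies above 0 with all libraries, and the crosses of all 9 lie below 0.

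Scaled to the mean level of the 20 cardiomyocyte markers in each library, all 9 genes lay below 0. Kcnk3 was at −0.092, Kcnn2 at −0.0073, Kcnj3 at −0.36, Kcnj12 at −0.57, Kcnj5 at −0.64, Kcnj2 at −0.76, Kcnk2 at −0.83, Kcnn3 at −1.43 and Kcnn1 at −1.46, with adjusted p from 0.073 (Kcnn3) to 0.993 (Kcnn2) by limma and 0 members called. This scaling moved the median of all genes tested to −1.04: it lowers every gene by the same 1.03, so each member keeps its place relative to that median by construction. The cardiomyocyte markers had a median log2 fold change of 1.12 with 19 of 20 above 0 (14 higher at an unadjusted p under 0.05, 0 after adjustment), beside 0.39 for the 9 channel genes. At an unadjusted p under 0.05, 6.67% of all genes tested were higher.

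Ratios of 2 genes of 1 family within a library depend little on how libraries are scaled (through the added count of 1 alone). For 4 pairs they were compared by the exact two-sided permutation test over 20 labelings, whose smallest p is 0.1. The log2 ratio of Kcnn2 to Kcnn3 was −1.12 ± 0.81 in Prrx1(R1A)-/- and −2.54 ± 0.97 in control nuclei (SD, n = 3 each), a difference of 1.42 (exact p = 0.2, adjusted p = 0.4). The log2 ratio of Kcnj3 to Kcnj5, the subunits of the acetylcholine-gated channel, was 0.15, 0.32 and 0.26 in Prrx1(R1A)-/- libraries and 0.19, −0.45 and 0.13 in control libraries, a difference of 0.29 (exact p = 0.2, adjusted p = 0.4). Control replicate 2 had the lowest ratio, and the other 5 libraries lay between 0.13 and 0.32. The log2 ratio of Kcnk2 to Kcnk3 was −5.77 ± 1.13 in Prrx1(R1A)-/- and −5.03 ± 1.16 in control nuclei, a difference of −0.74 (exact p = 0.4, adjusted p = 0.533). The log2 ratio of Kcnj2 to Kcnj12 was 0.97 ± 0.79 in Prrx1(R1A)-/- and 1.16 ± 0.79 in control nuclei, a difference of −0.18 (exact p = 0.7). All 4 had groups that overlapped, and none passed.

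**Figure D4:**
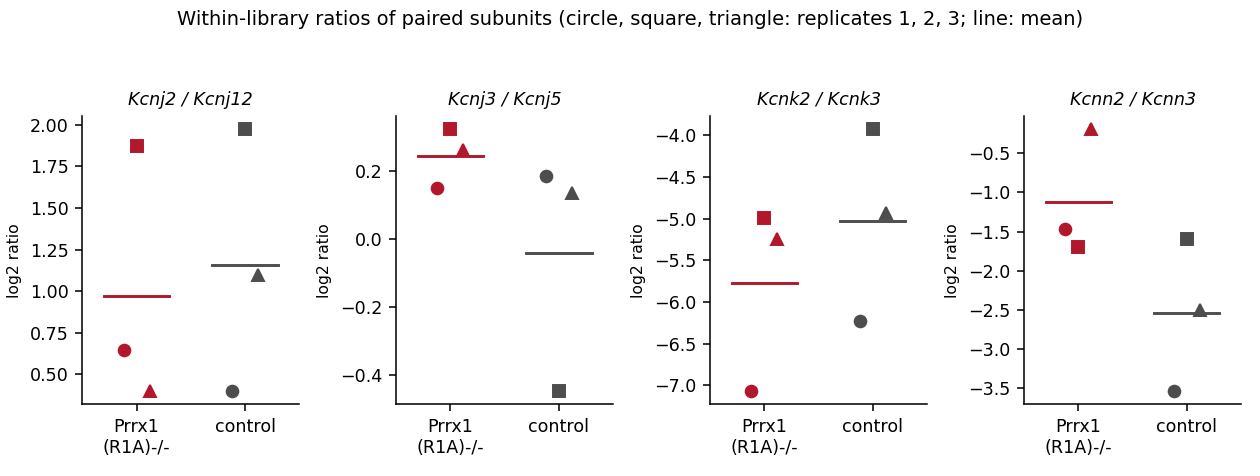
Log2 ratio of normalized counts plus 1 within each library (vertical axes) for 4 pairs of genes of 1 family, with Prrx1(R1A)-/- libraries on the left (red) and control libraries on the right (grey). The Kcnn2 to Kcnn3 ratio averages −1.12 in Prrx1(R1A)-/- and −2.54 in control libraries, and the groups overlap in every panel.

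Of the other inward rectifier genes, 6 of 11 were tested and none passed by limma (median 0.30). An unadjusted p under 0.05 went to 1, which was higher (6.67% of all genes tested were higher and 5.25% lower). The pore genes of the ATP-sensitive channels had the smallest p: Kcnj11 had 339 ± 28.9 normalized counts in Prrx1(R1A)-/- and 139 ± 69.8 in control nuclei (log2 fold change 1.39, adjusted p = 0.17), and Kcnj8, known from pericytes and smooth muscle, had 63.5 ± 38.0 and 114 ± 35.6 (−1.01, adjusted p = 0.45). Of the other two-pore genes, 5 of 12 were tested (median 0.33) and 0 passed by limma, also at an unadjusted p under 0.05. Kcnk13 had a log2 fold change of 0.69 ± 0.57 (SE) and Kcnk18 of 1.30 ± 1.10. Kcnk18 had 27.1, 10.8 and 8.09 normalized counts in Prrx1(R1A)-/- and 0, 11.2 and 15.6 in control libraries. Without control replicate 1 Kcnk18 was at 0.021 and Kcnk13 at 1.40. Kcnk12 and Kcnk15 were at 0 reads in all 6 libraries. Of the other calcium- or sodium-activated channel genes, 3 of 7 were tested (median −0.30), and again 0 passed or had an unadjusted p under 0.05. Kcnt2 was at −0.30 and Kcnn4, the intermediate-conductance relative of the SK genes, at −0.97 ± 1.25 (SE). Kcnn4 had 0, 20.4 and 27.3 normalized counts in Prrx1(R1A)-/- and 46.6, 16.5 and 4.45 in control libraries. Without control replicate 1 Kcnn4 was at −0.21.

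Signalling to the acetylcholine-gated channel was represented by 21 genes, all tested. By limma 0 passed. Unadjusted p values under 0.05 went to 3 higher and 3 lower genes (6.67% and 5.25% of all genes tested), and the median was −0.11. The muscarinic receptor Chrm2, the receptor that opens this channel on vagal release of acetylcholine, had 418, 434 and 316 normalized counts in Prrx1(R1A)-/- and 133, 164 and 247 in control libraries (log2 fold change 1.13, adjusted p = 0.20). The adenosine receptor Adora1, which opens the same channel, had 131 ± 46.1 and 61.7 ± 16.5 normalized counts in Prrx1(R1A)-/- and control nuclei (1.05, adjusted p = 0.33). Exons of 9330158H04Rik overlap those of Chrm2 on the other strand, and exons of Mybph those of Adora1. The groups did not overlap for either receptor, as for 17.2% of all genes tested. Both receptors were named for having the smallest p of the 21 genes.

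Among partner genes of the inward rectifiers, 18 of 19 were tested, with 0 called by limma, an unadjusted p under 0.05 for 4 higher genes and 1 lower, and a median of 0.19. At that threshold 6.67% of all genes tested were higher and 5.25% lower. The L-type calcium channel gene Cacna1c had 4012 ± 854 normalized counts in Prrx1(R1A)-/- and 1466 ± 470.0 in control nuclei (log2 fold change 1.48, adjusted p = 0.09). Among the 19 partners of the two-pore channels, 0 were called, an unadjusted p under 0.05 went to 4 higher and 3 lower genes, and the median was 0.33. The spectrin gene Sptbn4, whose protein anchors TREK-1 in mouse heart, had 94.5, 144 and 39.4 normalized counts in Prrx1(R1A)-/- libraries and 0, 8.24 and 19.3 in control libraries (adjusted p = 0.19), and the ankyrin gene Ank3 had a log2 fold change of 1.33 (adjusted p = 0.26). Exons of Gm44924 overlap those of Sptbn4 on the other strand. Among the 20 partners of the SK channels, 0 were called and an unadjusted p under 0.05 went to 4 higher and 3 lower genes, with a median of −0.11. Actn2, the Z-disc protein that anchors SK2, had 5748 ± 680.2 and 2370.4 ± 1198 normalized counts in Prrx1(R1A)-/- and control nuclei (1.42, adjusted p = 0.17). Actn2 is also 1 of the 20 cardiomyocyte markers, whose median was 1.12. Cacna1c is on both the inward rectifier and the SK partner lists and is counted as higher in each. Without control replicate 1, where 6.1% of all genes tested were called higher and 3.06% lower, limma called 4 higher and 1 lower for the inward rectifier partners, 1 and 1 for the receptor signalling list, 4 and 3 for the two-pore partners, and 5 and 4 for the SK partners. Chrm2 (adjusted p = 0.037) and Kcnj11 (adjusted p = 0.031) were among the genes called in that fit.

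Markers of other cell types had these values beside the channel genes. At an unadjusted p under 0.05, 6.67% of all genes tested were higher and 5.25% lower. Fibroblast markers lay below 0 in 15 of 15 tested genes (median −0.55, 8 lower at an unadjusted p under 0.05, 0 called by limma), with a summed level of 43038 to 47236 normalized counts in Prrx1(R1A)-/- and 56973 to 89497 in control libraries; their most abundant genes were Gsn (−0.64) and Col3a1 (−0.68). Immune markers lay below 0 in 13 of 13 (median −0.64, 6 lower at an unadjusted p under 0.05, 0 called), with a summed level of 8670.1 to 11612 in Prrx1(R1A)-/- and 9686 to 21539 in control libraries, led by Cd74 and Lyz2. Endothelial markers, led by Vwf and Npr3, had a median of −0.060, smooth muscle and pericyte markers, led by Pdgfrb and Abcc9, −0.047, Schwann cell and neuron markers, led by Cdh19 and Uchl1, 0.28, and adipocyte markers, led by Lpl and Fabp4, 0.16, with 0 called in each by limma and, at an unadjusted p under 0.05, 1 higher and 2 lower, 1 and 1, 0 and 1, and 0 and 0. Of the ventricular markers 3 of 6 were tested, led by Myh7 (1.38) and Hey2 (−0.95), with 0 called and an unadjusted p under 0.05 for 1 higher and 1 lower gene. Exons on the other strand overlap those of Myh7 (Mhrt, Gm29015 and Gm31251), Myh6 (Gm49130), Ttn (Gm13938), Npr3 (Gm5144), Abcc9 (5330439B14Rik) and Uchl1 (Uchl1os). Without control replicate 1 limma called 6 fibroblast markers lower, 0 immune markers and 10 cardiomyocyte markers higher. Calls higher and lower were 0 and 1 for endothelial markers, and 1 and 1 for smooth muscle and pericyte markers. They were 0 and 0 for Schwann cell and neuron markers, 0 and 1 for adipocyte markers, and 1 and 0 for ventricular markers. In that fit 6.1% of all genes tested were called higher and 3.06% lower. No marker of these lists was at 0 in all libraries. Their part in the values of the 9 genes was not tested.

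For the 3 most abundant members, the genes of at least 100 mean normalized counts with the most similar pattern over the 6 libraries were found by the root mean square difference of centred log2 values among 8434 genes. Nearest to Kcnk3 were Ercc2 (0.15), a helicase of DNA repair and transcription, and Samd1 (0.17). Nearest to Kcnj3 were E130308A19Rik (0.11) and Doc2g (0.13), and nearest to Kcnj5 were the insulin receptor gene Insr (0.086) and Phf13 (0.098). Within a difference of 0.2 there were 7 genes for Kcnk3, 29 for Kcnj3 and 109 for Kcnj5. These are likenesses over 6 libraries only.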

How the data were processed

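The authors deposited 1 normalized value (a signal, called a normalized count in the sheet name) for each gene in each library. Per the submitters' processing notes STAR, DESeq2 and build mm10 were used, while roles, versions, read counter and annotation are not given in the sources. Within a tolerance of 0.01 reads each column was whole multiples of 1 step, so reads were recovered for every value except Prrx1 in control replicate 3, which was rounded. The authors' deposited comparison table gives a log2 fold change with its p-value and adjusted p-value for 1900 genes, 2 of them members. Entries with no value (847) were dropped.

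Genotypes were compared with limma-trend (limma 3.58.1, R 4.3.3) on log2 of the normalized count plus 1, genotype as the single term, two-sided, on 14584 genes with at least 10 normalized counts in at least 3 libraries, with Benjamini-Hochberg adjustment over all of them. edgeR 4.0.16 and DESeq2 1.42.0 were run on recovered reads as alternatives, with other pseudocounts, filters, scalings, quality weights, a ribosomal RNA covariate, a replicate block and each library left out. A zero in a library allows up to 3 reads, or 2.22 to 3.77 normalized counts. On simulated data for 14301 genes, limma recovered 14.7% of genes changed 2-fold and 68.4% changed 4-fold, with 4 false calls. No simulated library was made to stand apart in ribosomal RNA or cardiomyocyte signal, so these shares may not hold for the real libraries. Exon lengths, overlaps and coding sequences are from GENCODE M21 (GRCm38); exon length is the union over transcripts. Replicate numbers were not used as pairs (correlations of same-numbered deviations −0.11, −0.02 and −0.09).

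The members and the gene lists were chosen with earlier results of these data known. Named are all members, Prrx1, from each channel, partner or signalling list the called genes or otherwise the 2 with the smallest p, from each cell type list the 2 most abundant, and the 2 nearest patterns; Gm9899 was added after its overlap was seen. Of the genes this rule names and the stretches it covers, some are not reported here. Counts of lists without control replicate 1 were also added after seeing the data. Plots were drawn with matplotlib 3.10.9.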

Additional observations from a re-analysis of the deposited data

How the results depend on the processing

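Without control replicate 1 limma called 1312 genes and 1 member (Kcnk3), and leaving out any 1 library gave 0 to 1312 genes, 0 to 1 members and a median of the members from 0.14 to 0.49, lowest without Prrx1(R1A)-/- replicate 3. The count of 2 called genes became 0 with quantile scaling, edgeR or the replicate block, 244 with DESeq2, 490 with the ribosomal RNA covariate, 1521 and 1 member (Kcnk3, 1.02) with quality weights, and 900 with scaling to cardiomyocyte markers. That scaling lowers every gene by the same 1.03, so genes between 0 and 1.03 turn by construction; it put the members' median at −0.64 and reversed Kcnj2 (−0.76), Kcnj12 (−0.57), Kcnj3 (−0.36), Kcnj5 (−0.64), Kcnk2 (−0.83), Kcnk3 (−0.092) and Kcnn2 (−0.0073). Kcnj12 was also below 0 with the ribosomal RNA covariate (−0.023) and without control replicate 2 (−0.0040, to 0.86 without Prrx1(R1A)-/- replicate 2), and Kcnk2 with quality weights (−0.023), without Prrx1(R1A)-/- replicate 2 (−0.17) and without control replicate 1 (−0.12), reaching 0.72 without Prrx1(R1A)-/- replicate 1. Kcnn1 (0.052) and Kcnn3 (0.051) turned above 0 without control replicate 1 and Prrx1(R1A)-/- replicate 3, the lowest values over single omissions being −0.84 and −0.63. The ratio of Kcnj2 to Kcnj12 turned to 0.10 without Prrx1(R1A)-/- replicate 3 and to 0.22 without control replicate 2, a range of −0.63 to 0.22 over single omissions. Over single omissions the ratio difference of Kcnk2 to Kcnk3 ran from −1.34 to −0.089, of Kcnj3 to Kcnj5 from 0.084 to 0.40, and of Kcnn2 to Kcnn3 from 0.92 to 1.90. Kcnj3, Kcnj5, Kcnj2, Kcnk3 and Kcnn2 kept theirs under every alternative except scaling to cardiomyocyte markers. With the replicate block 0 members passed, 1 had an unadjusted p under 0.05, and the ratio differences were unchanged at −0.18, 0.29, −0.74 and 1.42 (exact paired p 0.25 to 0.75; the smallest possible is 0.25). In the fit with the ribosomal RNA covariate 4 of 9 members had an unadjusted p under 0.05 (2491 of 14584 genes), and 0 passed. The log2 fold changes in that fit were 0.29 for Kcnj2, 0.67 for Kcnj3, 0.55 for Kcnj5 and 0.45 for Kcnk2. They were 0.61 for Kcnk3, −1.02 for Kcnn1, 1.58 for Kcnn2 and −0.31 for Kcnn3. The causes were not tested. Kcnk2, Kcnn1 and Kcnn2 had 6 to 66 reads a library, and a filter of 50 left them untested.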
